A study of Mus musculus with 8 samples.

Results

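Chemokines are small secreted or membrane-anchored proteins that guide the movement of leukocytes through receptors coupled to inhibitory G proteins, and they are named by the spacing of their first cysteines (CC, CXC, CX3C, XC). Some, such as Cxcl12, Cxcl14 and Ccl27a, are made constantly by skin cells, while others, such as Cxcl9 and Cxcl1, are switched on by interferons, interleukin 1 or tumour necrosis factor. Atypical receptors (the Ackr genes) bind chemokines without signalling through G proteins and remove, carry or store them. In mouse skin this system places dendritic cells, mast cells, macrophages and the gamma-delta T cells of the epidermis.

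The genes described here are all those whose symbol is Ccl, Cxcl, Ccr or Cxcr followed by a number and any letter, together with Cx3cl1, Cx3cr1, Xcr1 and Ackr1 to Ackr4, with pseudogenes left out. There were 58 of them, 36 ligands and 22 receptors, among 49671 genes in the table, and the 1 pseudogene dropped was Cxcl11, which the annotation types as polymorphic. Read counts came from total shaved skin of the back, taken from mice aged 8 weeks, with 4 libraries of Flg genotype wt/wt (wild type) and 4 of Flg genotype ko/ko (Flg knockout). Flg encodes profilaggrin, a structural protein of the outer epidermis. The sources used here do not give the strain, the sex, any treatment, the kind of Flg allele or whether each library is a separate animal, so p-values measure the spread between these samples.

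The question of the series is how loss of Flg changes gene expression across the skin. Library totals lay between 18483242 and 38545957 counts. Flg itself stood at 46.5 to 66.9 CPM (counts divided by the library total, scaled for library composition) in wild type and 22.3 to 27.0 CPM in knockout, and the groups did not overlap (two-sided exact permutation p = 0.0286, the smallest that 4 against 4 libraries allow). Reads of Flg were still counted in every knockout library. The keratinocyte markers Krt5 and Krt10 stood at means of 2647 and 3554 CPM in wild type, so the keratinocyte markers of the labelled tissue were present. Because the skin was not separated, fewer cells of a type and less RNA per cell cannot be told apart anywhere below.

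A gene was tested if it passed a filter on low counts, which 43 of the 58 did, 23 ligands and 20 receptors. It was called when its edgeR adjusted p over all 19099 tested genes was under 0.05. Of the 43, 4 were called, all ligands and all lower in knockout: Cxcl16, Ccl27a, Cxcl9 and Cxcl12. None was called higher. Among all tested genes 0.702% were called lower and 0.712% higher, which is 1.41% in either direction. At an unadjusted p under 0.05 there were 10 members lower and 0 higher, against 10.9% and 8.64% of all tested genes. The median log2 fold change (knockout over wild type) was -0.17 over the tested members, -0.09 over ligands and -0.20 over receptors, against -0.02 over all tested genes. Of the 43 members 26 lay below 0, where 53.3% of all tested genes did.

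All 4 calls were lost (edgeR adjusted p 0.0510 or more) when wild-type replicate 1 or 4 or any knockout replicate was left out, and remained without wild-type replicate 2 or 3. In the fits that lost them, 0.0566% to 0.663% of all genes were called. With 1 library left out the log2 fold changes ran from -0.48 to -0.43 for Cxcl16, -0.82 to -0.65 for Ccl27a, -1.16 to -0.89 for Cxcl9 and -0.79 to -0.54 for Cxcl12.

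**Figure D1:**
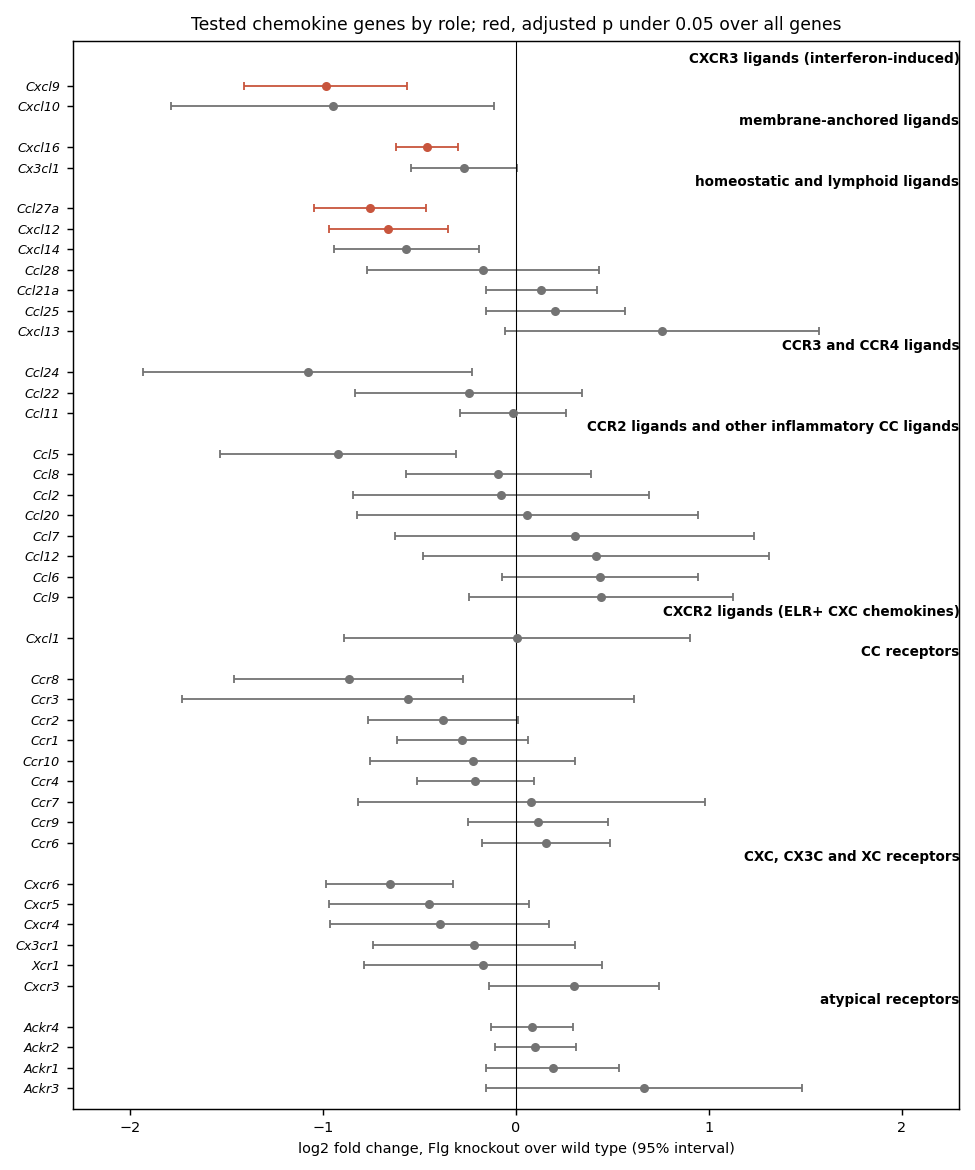
Log2 fold change of the tested chemokine genes reported here (points, Flg knockout over wild type, x axis) with its 95% interval (bars), grouped by role down the y axis. The 4 genes in red passed the test over all genes and lie left of 0, and the others did not pass.

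Upstream sequences are shown for 3 of the ligands because they differ in base composition and motif content: Cxcl9 and Cxcl10, neighbouring interferon-induced genes with similar fold changes, and Cxcl12, made constantly by stromal cells. Each run is the 250 bases before the RefSeq start site (build GRCm38.p6, the assembly of mm10), on the strand of the gene, and capitals mark motif matches. Cxcl9 lies at chr5:92328080-92328329 on the minus strand, Cxcl10 at chr5:92348890-92349139 on the minus strand and Cxcl12 at chr6:117168285-117168534 on the plus strand.
Cxcl9: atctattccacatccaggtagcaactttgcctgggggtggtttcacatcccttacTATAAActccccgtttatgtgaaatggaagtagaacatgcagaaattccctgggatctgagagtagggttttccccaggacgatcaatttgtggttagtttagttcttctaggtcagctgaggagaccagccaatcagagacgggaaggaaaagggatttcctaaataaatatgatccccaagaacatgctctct
Cxcl10: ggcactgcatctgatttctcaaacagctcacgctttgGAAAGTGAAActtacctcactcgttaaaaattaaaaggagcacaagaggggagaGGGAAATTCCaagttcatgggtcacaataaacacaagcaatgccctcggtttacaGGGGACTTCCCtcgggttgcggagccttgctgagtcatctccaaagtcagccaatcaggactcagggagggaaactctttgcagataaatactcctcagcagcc
Cxcl12: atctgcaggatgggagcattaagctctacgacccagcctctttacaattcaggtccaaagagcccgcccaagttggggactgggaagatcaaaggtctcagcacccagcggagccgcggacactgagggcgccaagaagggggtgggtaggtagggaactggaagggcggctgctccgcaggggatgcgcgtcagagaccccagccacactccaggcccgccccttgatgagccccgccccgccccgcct

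The motifs searched on both strands were the core of the interferon-stimulated response element (GAAA, any 2 bases, GAAA), TTCNNNGAA (bound by STAT dimers), TATAAA and the NF-kB consensus. They occurred in 2.98%, 7.02%, 12.4% and 7.25% of the 32851 promoters in the table over the same 250 bases. The Cxcl10 run held 1 response element (GAAAGTGAAA, from -213 counted back from the start site) and 3 matches to the NF-kB consensus at -159, -104 and -103, the last pair overlapping. The Cxcl9 run held only TATAAA at -195, and the Cxcl12 run held none of the 4 motifs. Cxcl12 had 14 CpG pairs and 64.4% G and C, against 3 and 44.4% for Cxcl9, 5 and 48.0% for Cxcl10, and medians of 6 and 52.4% over all promoters. A promoter entry was found for 44 of the 58 members. Of these, 11 held the NF-kB consensus, 3 the response element, 3 TTCNNNGAA and 14 TATAAA at any of their start sites. These counts are per gene and the percentages above per promoter, so they are not directly comparable. Ccl27a has 3 start sites in that table.

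Among the CXCR3 ligands, which draw activated T cells and natural killer cells, Cxcl9 (ENSMUSG00000029417, chr5:92321347-92328079, minus strand) stood at 14.5, 7.55, 12.8 and 14.0 CPM in wild-type replicates 1 to 4. In knockout replicates 1 to 4 it stood at 6.79, 5.62, 6.41 and 5.76 CPM. Wild-type replicate 2 came close to the knockout libraries, and the groups did not overlap. The mean fell from 12.2 ± 3.18 to 6.15 ± 0.551 CPM (SD, n = 4 per group), a log2 fold change of -0.99 ± 0.19 (SE, edgeR adjusted p = 0.0416). Cxcl10, whose gene lies beside it, stood at 8.03, 2.29, 4.09 and 7.16 CPM in wild type and 2.18, 4.28, 2.25 and 2.66 CPM in knockout. Wild-type replicates 1 and 4 were high and the groups overlapped, and the log2 fold change of -0.95 ± 0.38 did not pass (edgeR adjusted p = 0.208). Of the exonic bases of Cxcl10, 5.91% are shared with Art3 on the other strand, which had 14187 counts in all 8 libraries together. Cxcr3, the receptor gene of both ligands, did not pass, at 0.30 ± 0.20 (adjusted p = 0.431). It had 2.295 to 3.67 CPM in wild type and 2.77 to 4.32 CPM in knockout.

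Cxcl16 and Cx3cl1 encode the chemokines that are made as membrane proteins on a mucin-like stalk. Cxcl16 (ENSMUSG00000018920, chr11:70453983-70459984, minus strand) had the smallest p of all members. It stood at 50.6, 47.2, 47.5 and 48.9 CPM in wild type and 33.0, 36.6, 35.1 and 36.5 CPM in knockout. Every knockout library lay below every wild-type library, and the mean fell from 48.6 ± 1.57 to 35.3 ± 1.68 CPM (SD, n = 4 per group), which left 72.7% of the wild-type level. On the log2 scale the difference was -0.46 ± 0.07 (SE, edgeR adjusted p = 0.0231). Of its exonic bases, 18.3% are shared with Zmynd15 on the other strand, which had 2364 counts in all 8 libraries together. The strand setting of the counting is unknown from the sources at hand. Cx3cl1, the ligand of Cx3cr1, had a log2 fold change of -0.27 ± 0.12 (adjusted p = 0.262).

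The receptor of Cxcl16 is Cxcr6, a receptor of effector and resident T cells. Cxcr6 (chr9:123806475-123811760) stood at 12.5, 10.1, 9.06 and 10.3 CPM in wild type and 5.34, 7.12, 7.75 and 6.55 CPM in knockout. The groups did not overlap, and the log2 fold change of -0.66 ± 0.15 fell just short of the threshold (edgeR adjusted p = 0.0578, and 0.0239 with no count filter). It was the only receptor whose groups did not overlap, among 6 members in all, each lower in knockout (Cxcl16, Ccl27a, Cxcl9, Cxcl12, Cxcl14 and Cxcr6). Over all tested genes 5.95% were lower and 5.57% higher without overlap.

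Markers of lymphocytes were set beside Cxcr6, with few of them past the test. Of 13 T cell markers 12 lay below 0 and 1, the adhesion receptor Cd2, was called lower, and their summed level was 71.4 to 86.6 CPM in wild type and 46.4 to 63.6 CPM in knockout. The 8 markers of epidermal gamma-delta T cells all lay below 0 with none called, at sums of 61.8 to 100.1 CPM against 35.8 to 48.3 CPM. The 6 natural killer cell markers all lay below 0 as well, at 20.6 to 26.3 CPM against 11.6 to 16.8 CPM, and the receptor Ncr1 was called lower. None of these markers was at 0 in all libraries. Their part in the levels of Cxcr6, Cxcl9 or Cxcl16 was not tested.

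**Figure D2:**
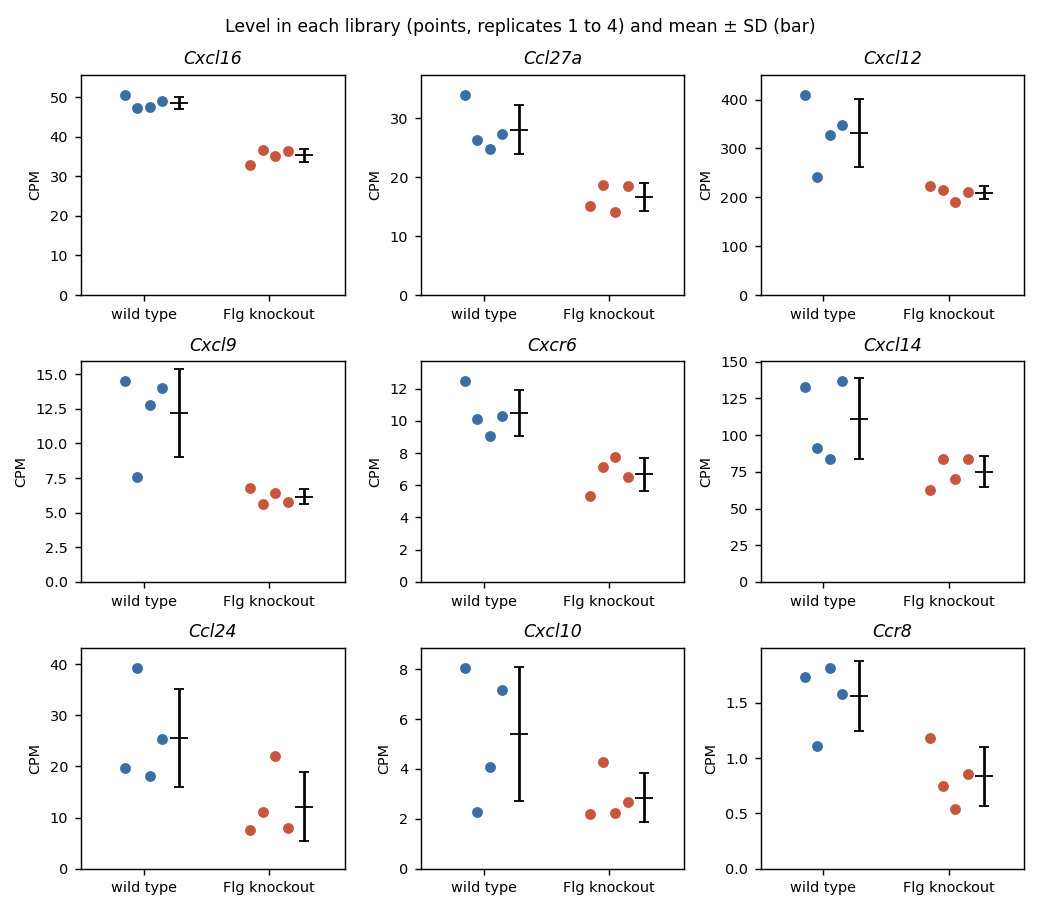
CPM (y axis, from 0) in each library (points, replicates 1 to 4 from left to right) of wild type and Flg knockout, with mean and SD over 4 libraries (bars), for the 4 called genes and 5 others with small p. The groups are apart for Cxcl16, Ccl27a, Cxcl12, Cxcl9 and Cxcr6, all but touch at 83.9 CPM for Cxcl14, and overlap for Ccl24, Cxcl10 and Ccr8.

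The homeostatic and lymphoid ligands held 2 of the 4 called genes, among 7 tested of 11. Ccl27a (ENSMUSG00000073888, chr4:41769467-41774247, minus strand), a keratinocyte chemokine that draws skin-homing T cells, stood at 34.0, 26.3, 24.7 and 27.3 CPM in wild type. In knockout it stood at 15.2, 18.7, 14.2 and 18.5 CPM. The groups were well apart, and the mean fell from 28.1 ± 4.09 to 16.6 ± 2.31 CPM (SD, n = 4 per group), a log2 fold change of -0.76 ± 0.13 (SE, edgeR adjusted p = 0.0284). The near-identical copy Ccl27b had 0 counts in every library, so how reads were divided between the copies is uncertain. Ccr10, the receptor of Ccl27a, stood at 1.73 ± 0.546 CPM in wild type and 1.47 ± 0.199 CPM in knockout (log2 fold change -0.23 ± 0.24, adjusted p = 0.636).

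Cxcl12 (ENSMUSG00000061353, chr6:117168535-117181367, plus strand), a chemokine of fibroblasts and vessels that retains leukocytes and stem cells, was among the 10 members with the highest level per length. It stood at 410.2, 241, 327 and 349 CPM in wild type and 222, 215, 191 and 211 CPM in knockout. Wild-type replicate 2 was the low library of its group and still lay above all of knockout. The mean fell from 332 ± 69.9 to 209.8 ± 13.3 CPM (SD, n = 4 per group), a log2 fold change of -0.66 ± 0.14 (SE, edgeR adjusted p = 0.0490, and 0.0517 with another size factor). Its signalling receptor gene Cxcr4 had a log2 fold change of -0.40 ± 0.26 (adjusted p = 0.421). Its scavenging receptor gene Ackr3 stood at 98.3, 74.3, 49.1 and 106 CPM in wild type and 55.5, 150.5, 184 and 130 CPM in knockout. Knockout replicate 1 was low and the other 3 lay above all of wild type, and the log2 fold change was 0.66 ± 0.36 (adjusted p = 0.349).

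Cxcl14, an epithelial and stromal chemokine, stood at 133, 91.4, 83.9 and 137 CPM in wild type and 62.5, 83.9, 70.2 and 83.6 CPM in knockout. The highest knockout library and the lowest wild-type library were both 83.9 CPM when rounded and did not overlap unrounded, and the log2 fold change of -0.57 ± 0.17 did not pass (edgeR adjusted p = 0.116). Cxcl13, which draws B cells to follicles, stood at 5.84, 11.3, 2.70 and 5.46 CPM in wild type and 7.74, 14.5, 11.1 and 9.91 CPM in knockout. Its groups overlapped through wild-type replicate 2 (log2 fold change 0.76 ± 0.36, adjusted p = 0.288), and it had the highest fold change of the 43. Its receptor gene Cxcr5 had a log2 fold change of -0.45 ± 0.24 (adjusted p = 0.319). Ccl21a, the lymphatic ligand of Ccr7, stood at 8.55 ± 0.915 CPM in wild type and 9.35 ± 1.12 CPM in knockout, with an interval for the log2 fold change from -0.16 to 0.42. The copy Ccl21b had 32 counts over all libraries, and their reads may not be separable.

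Keratinocyte and fibroblast markers were set beside these ligands. The 8 keratinocyte markers had 0 called and a median log2 fold change of -0.15, all below 0, with sums of 11238 to 13419 CPM in wild type and 10163 to 11690 CPM in knockout. The 7 fibroblast markers had 0 called and a median of -0.03, with sums of 23093 to 36956 CPM and 25428 to 37093 CPM. Their part in Ccl27a, Cxcl12 or Cxcl14 was not tested. The 10 white adipocyte markers had 0 called, 9 above 0, a median log2 fold change of 0.97 and a highest of 2.43. Their sums were 1803 to 3856 CPM in wild type and 3057 to 4577 CPM in knockout. With the mean of the adipocyte markers as a covariate no member passed, and neither did any other tested gene (0%), Flg included. That mean was 6.36 to 7.73 (log2 CPM) in wild type and 7.46 to 8.20 in knockout. It ran largely with genotype, so the 2 terms are hard to separate and the shifts that follow are uncertain. The log2 fold changes of Cxcl16, Ccl27a, Cxcl9 and Cxcl12 were -0.45, -0.78, -1.16 and -0.85. Other members, none of which passed in either fit, moved more. Toward 0 went Cxcr6 (to -0.43), Cxcl14 (to -0.34), Cxcr5 (to -0.082) and Ccl24 (to -0.0996). Away from 0 went Ccr8 (to -1.43), Cxcl13 (to 1.98), Ackr3 (to 1.5), Ccl9 (to 1.37), Ccl7 (to 1.22), Ccl6 (to 0.95) and Ackr1 (to 0.58), while Ccl8 and Ccl11 changed sign (to 0.69 and 0.18).

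The inflammatory CC ligands, which draw monocytes and T cells, held the most abundant member and no call among 8 tested of 11. Levels between genes are compared here per exonic length, on a scale like TPM. Ccl8, an agonist of Ccr8 in the mouse, had wild-type levels of 1497, 1515, 980.4 and 1717 on this scale, and its knockout levels were 1231, 1293, 1880 and 1197. It was the highest member in every library and made up 43.0% to 55.5% of the summed ligand level. Next came Ccl6 at 401 ± 134 in wild type and 572 ± 58.4 in knockout (SD, n = 4 per group), whose libraries did not overlap those of Ccl8 or Ccl9. Ccl9 (153 ± 61.6 and 219 ± 34.4), the eotaxin gene Ccl11 (157 ± 13.5 and 163 ± 24.5), Cxcl14 (187 ± 38.0 and 133 ± 21.4) and Cxcl12 (125 ± 24.2 and 82.7 ± 6.76) followed. In wild type the libraries of Ccl9 overlapped those of the other 3, while those of Cxcl14 all lay above those of Cxcl12. In knockout all libraries of Cxcl12 (72.6 to 86.8) lay below those of Cxcl14 (109.7 to 153), Ccl11 (130.4 to 189.9) and Ccl9 (178 to 248), and those of Cxcl14 lay below those of Ccl9. The summed ligand level was 2817 ± 580 in wild type and 2913 ± 369 in knockout.

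**Figure D3:**
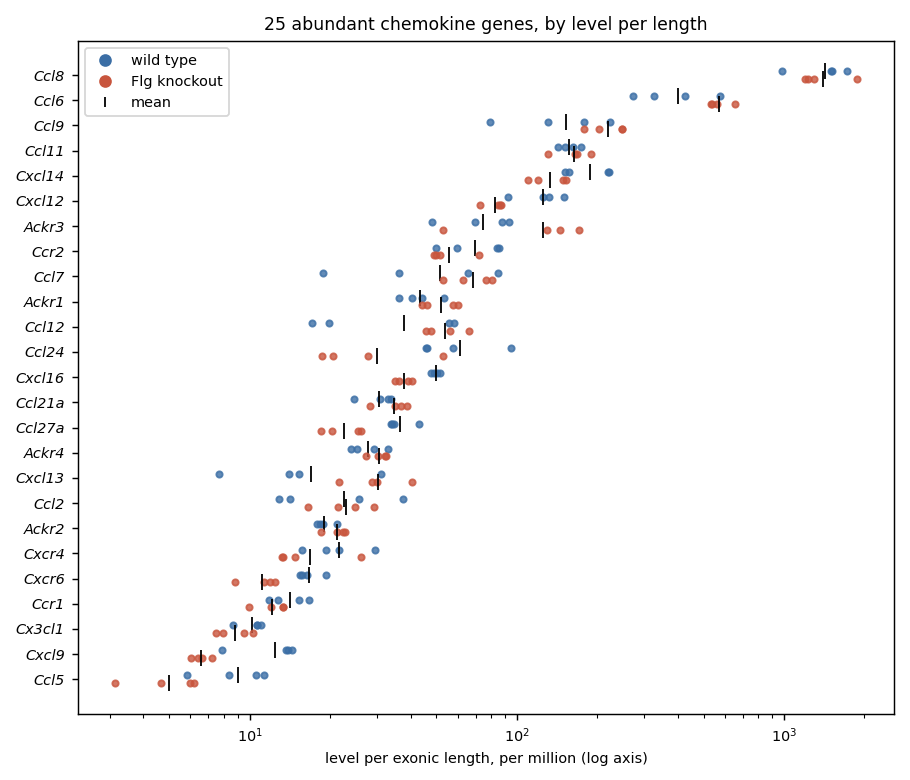
Level per exonic length, on a scale like TPM (x axis, log scale) of 25 abundant chemokine genes (y axis, in order of their mean), with each library as a point and the mean of 4 libraries as a tick. Ccl8 and Ccl6 stand above the rest in both genotypes, and the points of the genotypes overlap for most genes.

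None of the macrophage-linked CC ligands passed. Ccl6 stood at 255, 187, 149 and 352 CPM in wild type and 299, 365, 324 and 288 CPM in knockout (log2 fold change 0.44 ± 0.23, edgeR adjusted p = 0.324). Ccl9 stood at 181, 127, 73.8 and 230.2 CPM and at 170, 233, 242 and 185 CPM (0.44 ± 0.30, adjusted p = 0.458). Ccl7, a monocyte attractant, stood at 22.6, 9.25, 4.59 and 17.9 CPM and at 13.3, 19.97, 16.2 and 18.4 CPM (0.31 ± 0.41, adjusted p = 0.717). In all of these, wild-type replicates 2 and 3 were low and the knockout libraries fell among or above the wild-type values. Ccl8 had a log2 fold change of -0.09 ± 0.22, with a 95% interval from -0.57 to 0.39, and Ccl11 one of -0.02 ± 0.13, from -0.29 to 0.26. Ccl2 and Ccl12, both monocyte attractants, had -0.08 ± 0.34 and 0.42 ± 0.40 (adjusted p = 0.924 and 0.601). Of the 11 macrophage and monocyte markers, 8 lay above 0 and 3 below, with a median log2 fold change of 0.16. Their sums were 1570 to 2029 CPM in wild type and 1802 to 2559 CPM in knockout. Only the mannose receptor gene Mrc1 was called, and it was higher. The part of these markers in the ligands was not tested.

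Ccl5, made by T cells and natural killer cells, stood at 3.61, 1.78, 3.08 and 2.73 CPM in wild type and 1.39, 1.77, 1.92 and 0.898 CPM in knockout. Only wild-type replicate 2 fell within the knockout range (log2 fold change -0.92 ± 0.28, edgeR adjusted p = 0.114). Ccl24, an eosinophil attractant made by macrophages, stood at 19.6, 39.2, 18.2 and 25.3 CPM in wild type and 7.53, 11.1, 22.0 and 7.97 CPM in knockout. Knockout replicate 3 alone reached the wild-type range (log2 fold change -1.08 ± 0.38, adjusted p = 0.174), and this was the lowest fold change of the 43. It ran from -1.54 to -0.80 with 1 library left out, the former without knockout replicate 3, and was -0.0996 with the adipocyte covariate. Its receptor gene Ccr3 varied from 1.58 to 14.4 CPM in wild type and from 3.63 to 5.46 CPM in knockout. Among 5 eosinophil markers, 3 were tested, with log2 fold changes from -0.75 to 0.014 and a median of -0.24. The ribonuclease gene Ear2 was called lower, while Epx and Prg2 were too low to test. The 5 markers had sums of 19.3 to 29.3 CPM in wild type and 14.3 to 15.8 CPM in knockout. Their part in the level of Ccl24 was not tested.

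The receptors gave 0 calls among 20 tested of 22 and 2 at an unadjusted p under 0.05, Cxcr6 and Ccr8. DESeq2 called Cxcr6 (adjusted p = 0.00312), in a fit that called 6.16% of all tested genes. Limma voom with quality weights called Cxcr6, Ccr8 and Cxcr5, in a fit that called 13.4% of all tested genes. Ccr8, a receptor of resident and type 2 T cells, stood at 1.73, 1.11, 1.81 and 1.58 CPM in wild type and 1.18, 0.749, 0.541 and 0.860 CPM in knockout. The groups overlapped through wild-type replicate 2 and knockout replicate 1 (log2 fold change -0.87 ± 0.27, edgeR adjusted p = 0.124). Ccr2, the receptor of Ccl2, Ccl7 and Ccl12 on monocytes, was the most abundant signalling receptor at a level per length of 69.96 ± 18.02 in wild type and 55.6 ± 11.2 in knockout. Wild-type libraries stood at 112, 185, 174 and 137 CPM, while knockout libraries stood at 153, 104, 106 and 104 CPM. Their ranges overlapped and the log2 fold change was -0.38 ± 0.18 (adjusted p = 0.270). Leaving out knockout replicate 1, the high library, moved that value to -0.54 (adjusted p = 0.175).

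The 4 atypical receptors had 0 called, and all 4 log2 fold changes lay above 0. Ackr1, the receptor of venules and red cells that carries chemokines across the vessel wall, stood at 19.9 ± 3.84 CPM in wild type and 22.7 ± 3.74 CPM in knockout (log2 fold change 0.19 ± 0.16, edgeR adjusted p = 0.531). Of its exonic bases 25.7% are shared with Cadm3 on the same strand, so its reads may not be separable. Ackr2, a scavenger of inflammatory CC ligands, had 0.10 ± 0.09, with a 95% interval from -0.11 to 0.31. Ackr4, a scavenger of Ccl21a and Ccl25, had 0.08 ± 0.10, from -0.13 to 0.29. It shares 9.07% of its exonic bases with Acad11 on the other strand, which had 11288 counts over all libraries. The summed receptor level per length, the 4 atypical receptors included, was 341 ± 7.04 in wild type and 373 ± 47.7 in knockout.

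**Figure D4:**
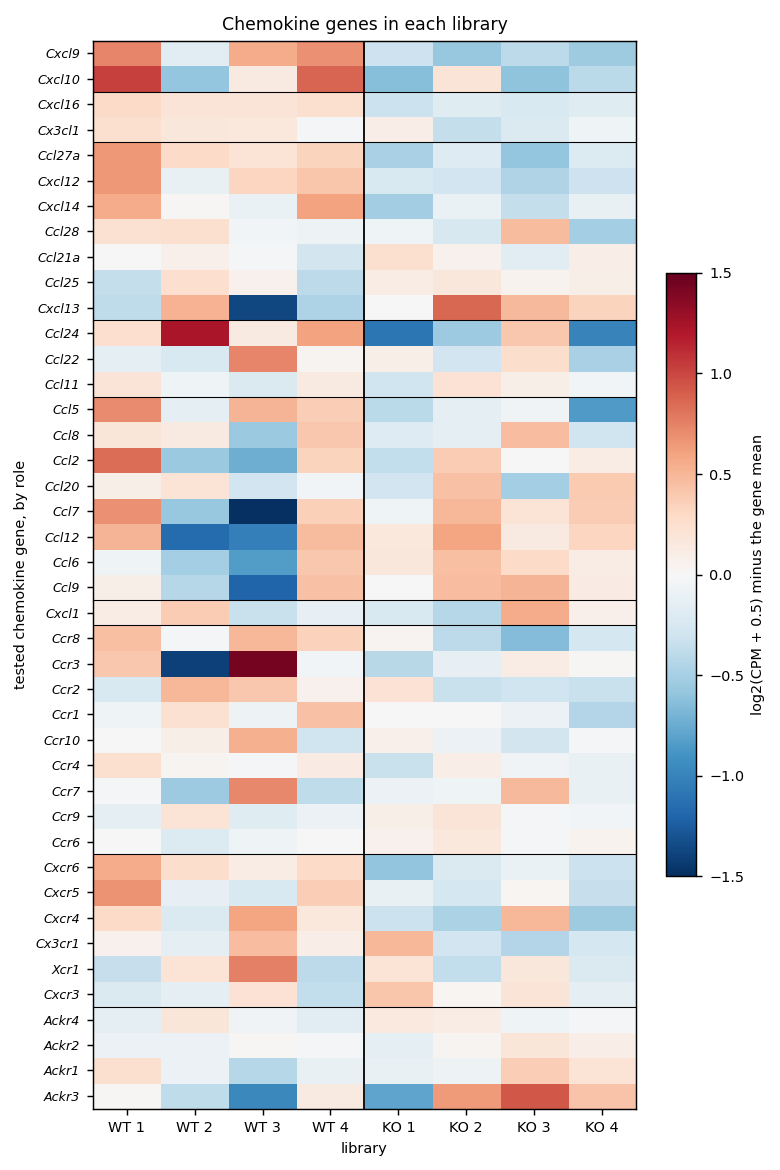
Log2(CPM + 0.5) of the tested chemokine genes reported here (rows, by role) in each library (columns), minus the mean of the gene over 8 libraries (colour). The 4 called ligands are below their mean (blue) in all knockout columns, and wild-type replicates 2 and 3 are blue for Ccl2, Ccl7, Ccl12, Ccl6 and Ccl9.

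The members that did not pass the filter were 13 ligands and 2 receptors. Ccl19, Ccl27b and Cxcr1 had 0 counts in every library, which allows up to 0.0789 to 0.161 CPM per library (3 counts, for counting error only). Ccl19 and Ccl27b lie in the chromosome 4 cluster that holds Ccl27a, Ccl21a and Ccl21b, where reads of copies may not be separable. The bound does not cover reads left uncounted for that reason. The ligands of Cxcr2 that draw neutrophils were at the floor of detection. Cxcl2, Cxcl3, Cxcl5 and Cxcl15 had 38, 5, 7 and 1 counts over all 8 libraries, and Cxcl1 alone was tested, at 0.634 ± 0.246 CPM in wild type and 0.642 ± 0.353 CPM in knockout (interval for the log2 fold change from -0.89 to 0.90). Cxcr2 had 71 counts over all libraries. The 8 neutrophil markers, none at 0 in all libraries, had 5 tested, 0 called and sums of 12.4 to 24.9 CPM in wild type and 14.8 to 19.0 CPM in knockout. Cxcl17, Ccl17, Ccl26, Ccl3, Ccl4 and Ccl21b had between 6 and 79 counts over all libraries.

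Ccl1, a second ligand of Ccr8 and made by activated T cells, was also under the filter, and is named after its values were seen. It had 31, 7, 18 and 23 counts in wild type and 3, 5, 5 and 6 in knockout. In CPM every knockout library lay below every wild-type library, narrowly so for knockout replicate 2 (0.268 CPM) and wild-type replicate 2 (0.277 CPM). In the fit with no count filter, where 1.38% of all genes were called, its log2 fold change was -1.95 ± 0.45 (SE, edgeR adjusted p = 0.0185).

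Many members lie in clusters on the chromosomes: 39 of the 58 have another member starting within 1 Mb, in 10 clusters. The 2 clusters of CC ligands on chromosome 11 (chr11:82035571-82305690 and chr11:83525778-83664683) held 11 genes, 8 of them tested, with 0 called and log2 fold changes from -0.92 for Ccl5 to 0.44 for Ccl9. The called genes Cxcl16 and Cxcl12 had no other member within 1 Mb.

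The other genes of chemokine biology were taken from 5 lists. Among 18 transcription factors and feedback regulators of chemokine genes, 1 was called lower and 0 higher, with 13 below 0 and a median of -0.09. The called gene was Irf1, an interferon-induced activator of Cxcl9 and Cxcl10 transcription, which fell from 72.8 ± 10.4 to 48.3 ± 2.95 CPM (log2 fold change -0.59 ± 0.11, edgeR adjusted p = 0.0335). Nfkbiz, a cofactor of NF-kB, had -0.38 ± 0.10 (adjusted p = 0.0759) and Cebpd, an acute-phase activator, 0.59 ± 0.16 (adjusted p = 0.0949).

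Of 16 cytokines that induce chemokines, 9 were tested and 1 was called lower, the epithelial cytokine gene Tslp at -1.16 ± 0.25 (edgeR adjusted p = 0.0496). Ltb and Lta, the lymphotoxin genes, had -0.69 ± 0.19 and -0.77 ± 0.25 (adjusted p = 0.0949 and 0.141), and the interleukin 1 gene Il1b had 0.58 ± 0.28 (adjusted p = 0.289). The interferon gamma gene Ifng was too low to test, and Il17a and Il22 were at 0 in all libraries. Among 13 other chemoattractant genes and receptors, 11 were tested and the chemerin receptor gene Cmklr1 was called higher, from 38.3 ± 9.26 to 73.3 ± 8.19 CPM (0.94 ± 0.16, adjusted p = 0.0303). Ltb4r1, the leukotriene B4 receptor, had -0.43 ± 0.13, Mif -0.47 ± 0.17 and C5ar1, the complement C5a receptor, 0.49 ± 0.27, none past the test.

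Genes of receptor signalling gave 0 calls of 24, with 16 above 0 and a median of 0.05. Rgs16, which shortens G protein signals, had -0.87 ± 0.23 (edgeR adjusted p = 0.0915), Gnai1, an inhibitory G protein subunit, 0.21 ± 0.09 and the arrestin gene Arrb1 0.28 ± 0.12. Of 6 chemokine family genes that the naming rule leaves out, 4 were tested and 0 called. Xcl1, the T cell and natural killer cell ligand of Xcr1, stood at 2.57 ± 0.866 CPM in wild type and 0.989 ± 0.309 CPM in knockout without overlap (-1.36 ± 0.30, adjusted p = 0.0542). Pf4, a platelet and macrophage chemokine, had 0.57 ± 0.21 (adjusted p = 0.189) and Cklf, a chemokine-like factor, 0.18 ± 0.19 (adjusted p = 0.625).

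**Figure D5:**
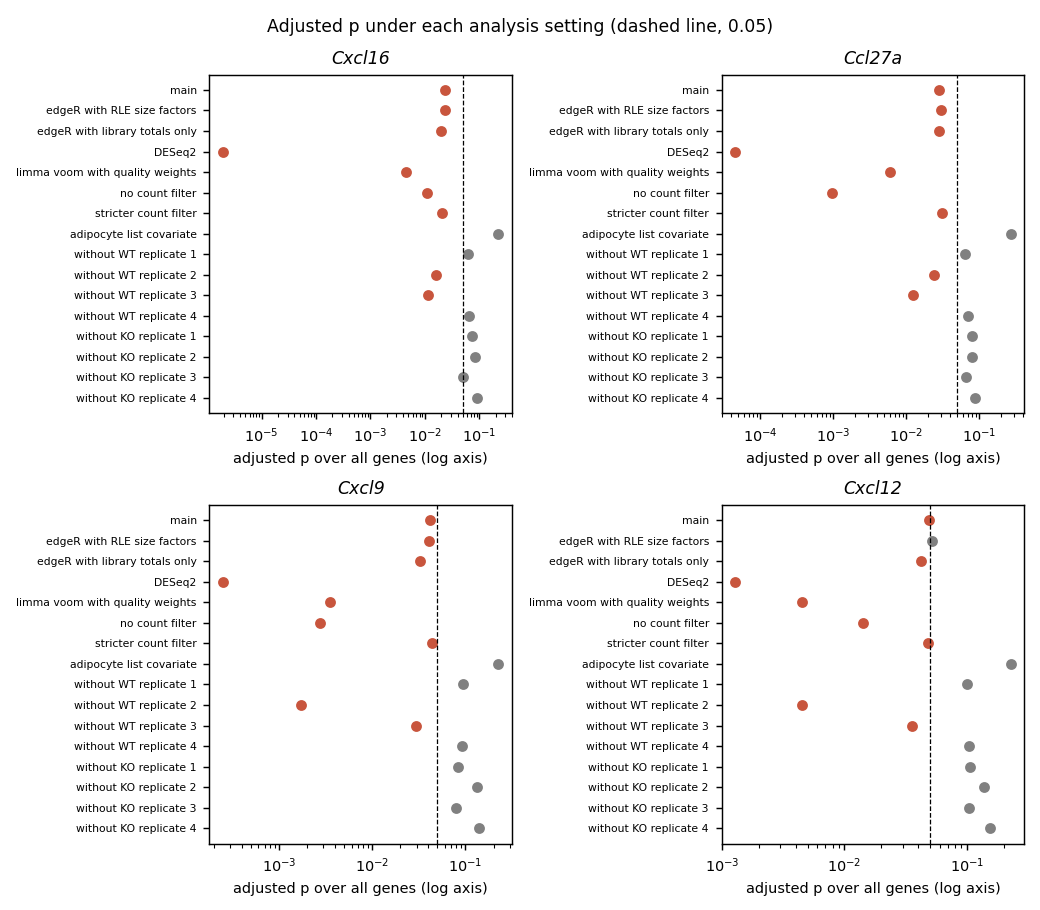
Adjusted p over all genes (x axis, log scale) of the 4 called ligands under the main analysis and 15 alternatives (y axis), with the dashed line at 0.05. Points left of the line passed, and for each gene 6 of the 8 left-out libraries and the adipocyte covariate lie right of it, as does Cxcl12 with RLE size factors.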

How the data were processed

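RNA of whole back skin was sequenced from 4 wild-type and 4 Flg knockout samples. Per the submitters' processing notes, the authors aligned reads with GSNAP to mm10 and counted them per gene with featureCounts 1.6.2. The deposited values are raw counts, and the table's exonic length was used for levels per length. The series text names a SMART protocol and the sample labels a directional kit, and which applies was not settled here. The 92 spike-in rows held at most 3 counts in any library and were left out. Symbols came from GENCODE vM21 on the same build (49326 of 49671 genes), and promoters from the RefSeq table (GRCm38.p6).

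Genes were filtered with filterByExpr, scaled with TMM and tested with the robust quasi-likelihood test of edgeR 4.0.16 (R 4.3.3), genotype as the only term, Benjamini-Hochberg over 19099 genes. SE and 95% intervals come from the F statistic and its degrees of freedom. The fit was also run on counts simulated from these libraries, with known changes larger than those of the 4 called members. That run checked the code and does not bear on the calls. Chi-square tests of counts over genes, divided by their degrees of freedom, compared each pair of replicates. They gave 5.46 for knockout replicates 2 and 4, and from 15.4 to 56.8 for the other pairs. No library was therefore a second sequencing of another, but these values cannot tell whether 2 libraries came from the same animal. Replicate numbers follow the order of the samples and pair nothing.

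Members and lists were chosen with earlier results of these data known. Genes named are the called members, the 10 others with the smallest p, the 10 with the highest level per length, Flg, and of each pathway list the called genes and up to 3 more with the smallest p. Receptors, ligand copies and neighbours of these, and markers, are named outside that rule. The values of 1 member and 1 pathway gene are not reported here, and counts over lists include them. Alternatives were other size factors, library totals, DESeq2 1.42.0, limma 3.58.1 voom, other filters, an adipocyte covariate and each library left out.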

Additional observations from a re-analysis of the deposited data

Results flagged for a closer look

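Among 44 groups of 4 libraries examined (the named members and Flg in each genotype), 2 held a library far from the others. Chance gives about 1 in 20, so the number flagged is near what chance alone would give. Ccr2, the monocyte receptor gene, stood at 152.8 CPM in knockout replicate 1, while the other 3 knockout libraries lay between 104 and 106 CPM. Ccl8 stood at 309 CPM in knockout replicate 3, while the other 3 lay between 183 and 204 CPM. No cause was tested.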

How the results depend on the processing

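No paired analysis was possible because the replicate numbers only follow the order of the samples. Cxcl16, Ccl27a, Cxcl9 and Cxcl12 stayed below 0 under all 15 alternatives. Members called lower, 4 in the main analysis, were 7 with DESeq2, 11 with limma voom (and 1 higher, Cxcl13), 6 with no count filter (Cxcr6 and Ccl1 added), 3 with RLE size factors, 0 with the adipocyte covariate and 0 to 6 with 1 library left out. Over all genes, 136 higher and 134 lower became 591 and 586 with DESeq2, 1193 and 1363 with voom, 234 and 268 with no count filter, 0 and 0 with the covariate, and 9 to 679 and 2 to 646 with 1 library left out. Pathway genes called, 3 in the main analysis, were 9 with DESeq2, 13 with voom, 0 with the covariate and 0 to 8 with 1 library left out. The covariate moved the members' median to -0.041 and Flg to -1.31 (edgeR adjusted p = 0.101). Members whose groups do not overlap were 6 in the main analysis (14.0%, against 11.5% of all tested genes). They numbered 5 with RLE size factors or library totals and 6 to 12 with 1 library left out. Smaller groups separate more easily, and the share over all genes is not given for these settings. The rise is therefore not read as a result about the members. Small values changed sign: Ccl8 to 0.69 with the covariate (-0.29 to 0.034 with 1 library left out) and Ccl11 to 0.18 (-0.093 to 0.077). The cause of these changes was not tested. Of the 15 members under the count filter, Ccl1 alone passed in the fit without it.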

Other observations

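The order of the wild-type libraries was looked at after the values were seen. In 13 of the 23 tested ligands (56.5%) wild-type replicates 1 and 4 were the highest 2 of their group, as in 5 of the 20 receptors (25%) and 29.0% of all tested genes. Those ligands include Ccl2, Ccl6, Ccl7, Ccl8, Ccl9, Ccl11 and Ccl12, which attract monocytes, eosinophils or T cells and lie in the 2 clusters on chromosome 11, and all 4 called ligands.

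Among markers of lymphatic vessels, whose cells make Ccl21a, the summed level was 180.1 to 277 CPM in wild type and 338 to 408 CPM in knockout. The sum does not describe every marker, as 4 lay above 0 and 2 below, with a median log2 fold change of 0.05. The highest fold change among them was that of Lyve1, a hyaluronan receptor that skin macrophages also carry, which stood at 74.0 ± 62.6 CPM in wild type and 210.04 ± 31.3 CPM in knockout (SD, n = 4 per group; edgeR adjusted p = 0.254). Prox1, the defining transcription factor of lymphatic cells, stood at 12.6 ± 2.61 and 11.4 ± 1.30 CPM (adjusted p = 0.672), and 0 of the 6 markers were called. The 8 markers of blood vessels had 0 called and sums of 259 to 410 CPM and 291 to 351 CPM.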
